A study of Homo sapiens with 16 samples.

Results

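Kruppel-like factors were followed in SUM225 cells over 45 h of HER2 kinase inhibition. The 10 genes described here were taken by their symbols in the probe table (KLF2, KLF3, KLF4, KLF5, KLF6, KLF7, KLF9, KLF10, KLF11 and KLF13), and every probe that carried any of these symbols was used. They made up 14 of 24526 probes and 10 of 18631 gene symbols. KLF6 and KLF11 had 2 probes each, KLF10 had 3, and the others had 1. SUM-225, written SUM225 here, is an established breast cancer line with an amplified and overexpressed HER2 gene. The labels of all 16 cultures give Ham's F-12 medium with serum, insulin and hydrocortisone, whereas the study's methods name SFH medium without insulin for this line, and the difference was not resolved. The cells received 1 µM CP724,714, a small molecule inhibitor of HER2 kinase activity. A separate culture was taken at each time from 0 to 45 h, in steps of 3 h, and its RNA was measured on 1 Illumina bead array. No time point had a replicate and no untreated course was analysed here, so the inhibitor, time in culture and handling at the start cannot be told apart. The study's methods give a medium change when treatment began for the courses of MCF10A and its derived lines, and do not name SUM225 there.

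Kruppel-like factors are transcription factors that bind CACCC sequences and GC boxes through zinc fingers at their carboxyl end. Their amino-terminal parts differ and set the partners they recruit. KLF2, KLF4, KLF5, KLF6 and KLF7 mostly activate genes with acetyltransferase coactivators, KLF9, KLF10, KLF11 and KLF13 recruit the SIN3A corepressor, and KLF3 recruits the corepressor CtBP. In epithelia several of them govern the passage from dividing to differentiated cells, and many respond within hours to hormones, growth factors or stress.

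The sequences before the transcription starts of 4 of the genes are shown, picked by their courses. Differences between the courses, and any link of sequence to course, were not tested. KLF9 had the only called change at the start of treatment, and KLF13 and KLF4 had their first called step from the early hours to 12 h and later. KLF4 was already 0.55 log2 units higher in the early hours than at 0 h. That change was not called, though it was larger than the called step of 0.33. KLF2 had its highest value at 0 h and no called change. Each line holds the 250 bases upstream of the start, on the strand of the gene, from the RefSeq annotation of GRCh38.p14. They lie at chr9:70414658-70414907 (KLF9, minus strand), chr15:31326585-31326834 (KLF13, plus strand), chr9:107489770-107490019 (KLF4, minus strand) and chr19:16324576-16324825 (KLF2, plus strand). Capitals mark the CACCC motif, the GC box core GGGCGG, the forkhead motif GTAAACA, the CArG box and the MEF2 site, read on both strands.
KLF9: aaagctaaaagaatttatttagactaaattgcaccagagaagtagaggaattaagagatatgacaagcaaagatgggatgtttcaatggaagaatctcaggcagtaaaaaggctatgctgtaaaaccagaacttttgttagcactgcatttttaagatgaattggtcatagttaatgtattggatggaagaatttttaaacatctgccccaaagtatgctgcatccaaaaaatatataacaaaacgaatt
KLF13: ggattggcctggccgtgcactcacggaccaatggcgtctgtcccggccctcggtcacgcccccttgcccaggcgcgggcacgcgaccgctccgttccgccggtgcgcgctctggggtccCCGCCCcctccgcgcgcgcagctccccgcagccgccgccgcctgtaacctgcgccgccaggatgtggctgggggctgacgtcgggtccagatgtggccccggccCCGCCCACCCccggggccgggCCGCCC
KLF4: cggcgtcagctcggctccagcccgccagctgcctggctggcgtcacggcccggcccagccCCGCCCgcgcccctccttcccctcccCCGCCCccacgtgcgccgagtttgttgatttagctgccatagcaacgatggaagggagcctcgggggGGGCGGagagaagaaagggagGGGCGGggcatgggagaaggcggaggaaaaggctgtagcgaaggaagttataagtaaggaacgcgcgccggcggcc
KLF2: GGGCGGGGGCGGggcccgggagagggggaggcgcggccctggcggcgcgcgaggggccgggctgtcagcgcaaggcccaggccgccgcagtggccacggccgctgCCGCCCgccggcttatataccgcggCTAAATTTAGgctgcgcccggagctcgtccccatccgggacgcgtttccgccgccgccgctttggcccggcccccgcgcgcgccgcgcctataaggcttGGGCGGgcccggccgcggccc

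The promoter table held windows from 250 bases before to 50 bases after a start for 8 of the 10 genes, 13 windows in all, and none for KLF3 or KLF10. Among all 35116 windows of the table, 59.9% held CACCC, 45% held GGGCGG, 7.26% held CACGTG, 3.42% held GTAAACA (a forkhead motif), 1.29% held a CArG box and 2.99% held a MEF2 site, each on either strand. GGGCGG and CACCC overlapped once in the printed KLF13 sequence, where they share 1 base. The KLF9 window held none of the 6 motifs and was rich in A and T, with a G and C content of 32.7%, below which lay 2.36% of all windows (median 58.7%). The KLF13 window held 3 matches to GGGCGG and 1 to CACCC, and the KLF4 window held 4 matches to GGGCGG and 1 to CACGTG, which starts at position -157 and is not in capitals. The KLF2 window, with a G and C content of 80.7%, held 6 matches to GGGCGG and a MEF2 site at position -120. KLF6 had 2 matches to GGGCGG and 1 to CACGTG, KLF5 had CACCC in both of its windows, and 1 of 4 KLF7 windows held a CArG box. A match describes these letters and not a bound site.

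The arrays had a median signal between 242.2 and 383.8, the highest at 27 h, and 57.5% to 61.5% of probes were detected, meaning a detection p-value under 0.05. Values below are background-corrected, quantile-normalized log2 signals, in which a difference of 1 is a factor of 2. The time points after 0 h were grouped into an early (3 to 9 h, 3 arrays), a middle (12 to 21 h), a late (24 to 33 h) and a final (36 to 45 h) window of 4 arrays each. Earlier work on these data had seen arrays stand apart in these windows. The calls of steps between windows are therefore not independent of that choice. The labelled cell type was checked by markers. All 7 epithelial and HER2 markers on the array were detected on all 16 arrays, with mean log2 values of 16.10 for ERBB2 and 16.11 for KRT19. KRT8 and KRT18 among them fell by 0.68 and 0.74 over 45 h (adjusted p = 2.14e-05 and 7.73e-06). The leukocyte marker PTPRC, the endothelial marker TEK and the fibroblast markers COL3A1 and PDGFRB were detected on 0 arrays. Of the other markers of these 3 cell types reported here, CDH5 and CD3E were detected on 1 array, COL1A1 and COL1A2 on 5, and PECAM1 and CD68 on 16. VWF was detected on 13 and rose by 2.51 ± 0.28 (SE) over 45 h, CD68 rose by 0.38 ± 0.14 (adjusted p = 0.0341), and the part of such cells in the results was not tested. In bulk RNA, fewer cells of a kind and less RNA per cell cannot be told apart.

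All 14 probes passed the filter on dim signals, 13 of them detected on all 16 arrays and KLF7 on 12. Of the 10 genes, each taken by its brightest probe, 6 were time-dependent (KLF4, KLF5, KLF6, KLF9, KLF11 and KLF13), beside 52.8% of all 13108 genes tested. Time dependence here is a limma F-test of a fitted cubic, and calls were made at an adjusted p below 0.05 throughout. A linear rise was called for 5 (KLF4, KLF5, KLF6, KLF9 and KLF13), beside 27% of all genes. A linear fall was called for 0 of the 10 by limma, beside 22% of all genes. At an unadjusted p under 0.05 the number was also 0, and the share of all genes at that threshold was not counted. A departure from a straight line was called for 2, KLF4 and KLF11, beside 20.3%. The median linear change over 45 h was 0.47 log2 units over the 10 genes and 0.06 over all genes. The residual SD around the cubic, which stands in for replicate error, was 0.13 to 0.29 for the 10 genes with a median of 0.18, and had a median of 0.19 over all genes.

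**Figure D1:**
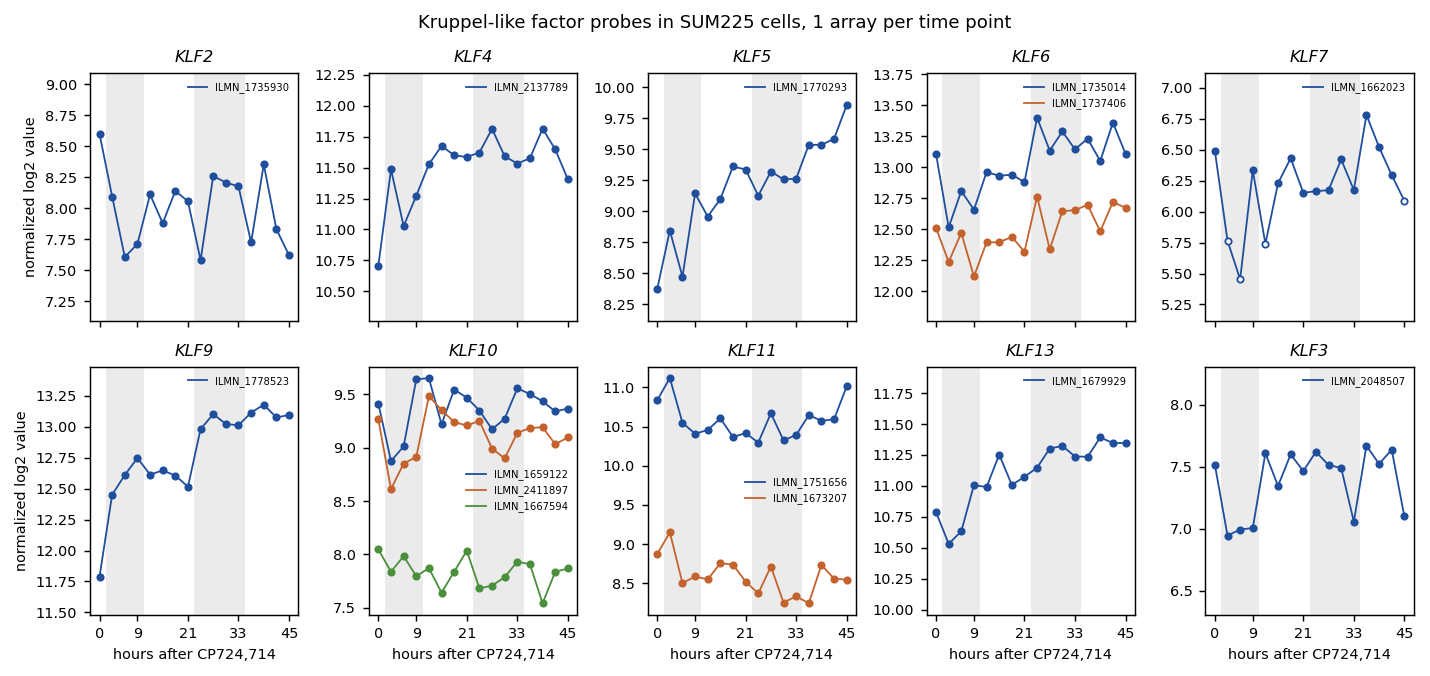
Normalized log2 value of each Kruppel-like factor probe (vertical axis, each panel on its own range) against hours after CP724,714, 1 array per point, with filled points for detection p under 0.05, open points for values not detected, and shading for the early and late windows. KLF9 climbs from 11.79 at 0 h to 13.09 at 45 h in 2 steps, KLF5 from 8.37 to 9.86, and the brighter KLF6 probe lies lowest at 3 h (12.52) and highest at 24 h (13.40), while its other probe is lowest at 9 h (12.12) and highest at 24 h (12.76).

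KLF9 is a hormone-responsive repressor that thyroid hormone and glucocorticoids induce in many tissues. It was the only gene of the 10 with a called change at the first step. Its log2 value was 11.79 at 0 h and then 12.45, 12.61 and 12.75 at 3, 6 and 9 h. It stayed level at 12.61, 12.65, 12.61 and 12.52 in the middle window. It then stood at 12.98, 13.10, 13.02 and 13.01 in the late window and at 13.11, 13.18, 13.07 and 13.09 in the final one. All 15 later arrays were above the 0 h array, and the values of 24 h and later did not overlap those of 21 h and earlier. How many of all genes show such a separation was not counted. The linear change was 0.97 ± 0.13 (SE) log2 units (adjusted p = 6.75e-06). The mean of the early window was 0.81 ± 0.11 above the 0 h array, 1.76-fold (adjusted p = 0.000261). The mean of the late window was 0.43 ± 0.07 above that of the middle window, 1.35-fold (adjusted p = 0.000301). Between these steps, from the early to the middle window, the change was -0.01 ± 0.07. The later step was no longer called when the window borders moved by 1 time point (0.37, adjusted p = 0.0915).

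KLF13, a close relative of KLF9, was first described as a regulator of the chemokine gene CCL5 in T cells. Its values were 10.79 at 0 h, 10.53, 10.63 and 11.01 in the early window, and 10.99, 11.25, 11.01 and 11.07 in the middle window. In the late window they were 11.15, 11.30, 11.32 and 11.24, and in the final window 11.24, 11.39, 11.35 and 11.35. The lowest arrays were the first 3, and every array from 24 h on was above 11.1, a pattern that was not counted over all genes. KLF13 rose by 0.71 ± 0.11 over 45 h (adjusted p = 1.78e-05), with no called departure from a straight line (adjusted p = 0.342). Unlike KLF9 it showed no call from 0 h to the early window (-0.06 ± 0.16, adjusted p = 0.889), a difference between the genes that was not tested. Its called step came from the early to the middle window (0.36 ± 0.10, adjusted p = 0.0157). That step was lost without the 3 h array (0.26, adjusted p = 0.0911), the 6 h array (0.31, adjusted p = 0.0776) or the 15 h array (0.30, adjusted p = 0.0546).

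KLF10 and KLF11, first found as early genes induced by TGF-beta, made up the rest of the SIN3A-binding group and had no called linear trend. The brightest KLF11 probe, ILMN_1751656, was high at both ends of the course and lower between. It was 10.83 at 0 h and 11.12, 10.55 and 10.41 in the early window. Over the next 8 arrays it lay between 10.30 at 24 h and 10.67 at 27 h, and in the final window it was 10.65, 10.57, 10.59 and 11.01. The 3 highest arrays were thus 3 h, 45 h and 0 h. The F-test of the cubic gave an adjusted p of 0.01 and the departure from a straight line 0.015, while the linear change was -0.06 ± 0.13 (adjusted p = 0.73). Without the 45 h array the departure was not called (adjusted p = 0.0838). The other probe, ILMN_1673207, was also highest at 3 h (9.15) but was not higher at the end (8.55 at 45 h), and its linear change was -0.38 ± 0.16 (adjusted p = 0.0581). For this probe neither the F-test of the cubic (adjusted p = 0.0996) nor the departure from a straight line (adjusted p = 0.389) was called. The probes correlated with r = 0.63 over the 16 arrays.

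The 3 KLF10 probes did not move as a unit. ILMN_1659122 was 9.41 at 0 h, lowest at 3 h (8.87) and highest at 12 h (9.65), and its window means lay between 9.18 (early) and 9.47 (middle). ILMN_2411897 had its lowest (8.61) and highest (9.48) values at the same hours. It was 0.53 ± 0.12 higher in the middle than in the early window (adjusted p = 0.00206), a step that measured 0.30 ± 0.15 with ILMN_1659122 (adjusted p = 0.166). ILMN_1667594 stayed between 7.54 and 8.05 and was -0.03 ± 0.13 over the same windows. The linear changes were 0.16 ± 0.17, 0.08 ± 0.17 and -0.14 ± 0.14, none of them past the threshold (lowest adjusted p = 0.456). The first 2 probes correlated with r = 0.65, and ILMN_1667594 correlated with them at 0.10 and -0.06.

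KLF5 and KLF4 are the pair best known in epithelia, where KLF5 marks dividing basal and crypt cells and KLF4 the differentiating layers above them. Both rose. KLF5 was 8.37 at 0 h, 8.84, 8.47 and 9.14 in the early window, and 8.96, 9.10, 9.36 and 9.34 in the middle window. It was 9.12, 9.32, 9.26 and 9.26 in the late window and 9.53, 9.53, 9.58 and 9.86 in the final window. The first array was the lowest and the last the highest, 2.80-fold apart. The last 4 arrays did not overlap any earlier array, a pattern that was not counted over all genes. The linear change was 1.10 ± 0.13 (adjusted p = 1.5e-06), the largest of the 14 probes, and the course did not depart from a straight line by the test (adjusted p = 0.175). No single step between windows was called for KLF5, the nearest being 0.37 ± 0.14 from the early to the middle window (adjusted p = 0.0638) and 0.39 ± 0.13 from the late to the final window (adjusted p = 0.132).

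KLF4, an activator of differentiation genes that also restrains the cell cycle, was 10.71 at 0 h and 11.48 at 3 h. It was 11.03 and 11.27 at 6 and 9 h and 11.53, 11.67, 11.60 and 11.58 in the middle window. The last 8 arrays ranged from 11.41 at 45 h to 11.81 at 27 and 39 h. The 0 h array was thus the lowest and all later arrays were above it, with a plateau from 12 h on. KLF4 rose by 0.53 ± 0.13 (adjusted p = 0.0026) and departed from a straight line (adjusted p = 0.0317). The change from 0 h to the early window was 0.55 ± 0.17 (adjusted p = 0.0877), and the next step was 0.33 ± 0.11 (adjusted p = 0.0281). Without the 0 h array the linear change was 0.31 (adjusted p = 0.0673), time dependence had an adjusted p of 0.0565 and the departure 0.19. The departure was also lost without the array at 15 h (adjusted p = 0.0602), 18 h (0.0516), 27 h (0.053) or 45 h (0.0892). The step to the middle window was lost without the array at 6 h (0.22, adjusted p = 0.194), 15 h (0.31, 0.0703), 18 h (0.33, 0.0555) or 21 h (0.34, 0.0522).

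KLF6 is widely expressed and induced by injury, and both of its probes rose over the course. The brightest, ILMN_1735014, was 13.11 at 0 h, 12.52, 12.81 and 12.66 in the early window, and 12.96, 12.93, 12.94 and 12.88 in the middle window. It was 13.40, 13.14, 13.29 and 13.14 in the late window and 13.23, 13.05, 13.36 and 13.11 in the final window. For this probe the 3 windows from 3 to 33 h did not overlap one another, a pattern that was not counted over all genes. The 45 h value equalled that of 0 h at this precision. The change from 0 h to the early window was -0.45 ± 0.13 (adjusted p = 0.0854). The next steps were 0.27 ± 0.09 (adjusted p = 0.028) and 0.31 ± 0.08 (adjusted p = 0.0182), and the linear change was 0.51 ± 0.13 (adjusted p = 0.0027). The other probe, ILMN_1737406, was lowest at 9 h (12.12) and highest at 24 h (12.76). Its early (12.12 to 12.47), middle (12.32 to 12.44) and late (12.34 to 12.76) windows overlapped. This probe gave a linear change of 0.38 ± 0.11 (adjusted p = 0.00878) and correlated with r = 0.87, but its steps of 0.11 and 0.21 were not called (adjusted p = 0.441 and 0.171). With the brightest probe the first of these steps was lost without the array at 3 h (0.20, adjusted p = 0.142), 9 h (0.27, 0.0504), 12 h (0.26, 0.0548), 15 h (0.27, 0.0534) or 18 h (0.26, 0.058). The next was lost without 24 h (0.26, adjusted p = 0.0684) or 30 h (0.30, 0.0619).

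KLF2, a regulator of quiescence in endothelium and T cells, was highest at 0 h (8.60). It was 8.10, 7.61 and 7.71 in the early window, and the later arrays scattered between 7.58 at 24 h and 8.36 at 39 h. Its change from 0 h to the early window was -0.79 ± 0.28 (adjusted p = 0.157; unadjusted p = 0.0114) and its linear change -0.17 ± 0.20 (adjusted p = 0.513), so neither was called. KLF7, known from neuronal development, was dim, at 5.45 (6 h) to 6.78 (36 h), and not detected at 3, 6, 12 and 45 h. Its linear change was 0.44 ± 0.24 (adjusted p = 0.151).

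KLF3, the CtBP-binding repressor, was 7.52 at 0 h and 6.95, 6.99 and 7.01 in the early window. It was 7.61, 7.35, 7.60 and 7.47 in the middle window. After that it lay between 7.06 at 33 h and 7.67 at 36 h. The 3 arrays in the early window were the lowest of the 16, by a small margin below 33 h, a pattern that was not counted over all genes. The rise to the middle window was called (0.52 ± 0.16, adjusted p = 0.023), whereas the change before it (-0.54 ± 0.25, adjusted p = 0.294) and the linear change (0.25 ± 0.20, adjusted p = 0.332) were not. The call was lost without the array at 3 h (0.51, adjusted p = 0.06), 6 h (0.53, 0.0588), 12 h (0.49, 0.0517) or 18 h (0.49, 0.0595), and without the filter on dim probes (adjusted p = 0.0606). Without background correction the step measured 0.25 (adjusted p = 0.0301).

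**Figure D2:**
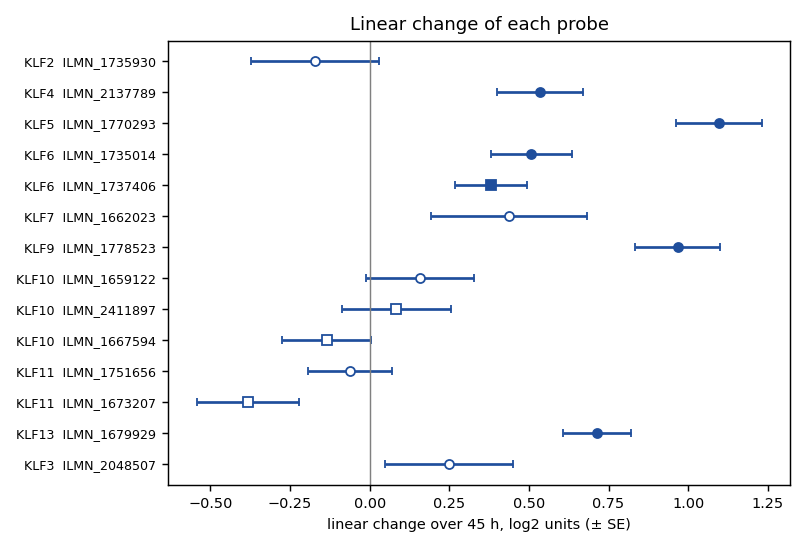
Linear change over 45 h in log2 units (horizontal axis) of the 14 probes with bars of 1 SE, circles for the brightest probe of a gene, squares for its other probes, and filled symbols for an adjusted p under 0.05. KLF5 (1.10) and KLF9 (0.97) lie farthest to the right, both KLF6 probes are filled, and the 3 KLF10 probes lie on both sides of 0.

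Steps between windows were compared over the 10 genes, each taken by its brightest probe. From 0 h to the early window, 1 rose (KLF9), beside 1.17% of all genes, and 0 fell, beside 1.35%. At an unadjusted p under 0.05, 2 were higher (KLF4 and KLF9) and 3 were lower (KLF2, KLF3 and KLF6). The share of all genes at an unadjusted p was not counted for any step. All percentages given beside the steps are shares called at an adjusted p. From the early to the middle window, 4 rose (KLF3, KLF4, KLF6 and KLF13), beside 16.1%, and 0 fell, also unadjusted, beside 12.8%. From the middle to the late window, 2 rose (KLF6 and KLF9), beside 5.47%, and 0 fell, also unadjusted, beside 4.25%. The KLF10 probe ILMN_2411897, outside these counts, had a called rise of 0.53 from the early to the middle window. It was then 0.25 lower in the late window (unadjusted p = 0.03, adjusted p = 0.168). From the late to the final window, 0 rose, beside 0.893%, with KLF5 higher at an unadjusted p under 0.05, and 0 fell, also unadjusted, beside 3.31%. Every change from 0 h rests on the lone 0 h array. The labels name no batch, and a shift common to the arrays of a window could not be told apart from a step. The linear trend was therefore also fitted within runs of 4 arrays (the 0 h array with the early window, and each later window by itself), a split chosen with earlier results of these data known. With the run as a factor, 0 of the 10 genes had a called linear trend by limma. KLF5 measured 1.76 ± 0.57 (adjusted p = 0.149), KLF9 0.96 ± 0.59 (0.482), KLF13 0.50 ± 0.45 (0.653), KLF4 0.06 ± 0.61 (0.978) and KLF6 -0.73 ± 0.46 (0.485). These SEs exceed the 0.11 to 0.13 of the main fit, so a call lost here does not show that a trend is absent. With window borders moved by 1 time point, the step to the middle window was no longer called for KLF3 (0.37, adjusted p = 0.172), KLF4 (0.29, 0.0935) or KLF6 (0.30, 0.0891), nor was the KLF6 step to the late window (0.16, 0.6). Array weights changed the step to the middle window to 0.52 for KLF4 (adjusted p = 3.98e-05) and 0.15 for KLF6 (0.105).

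**Figure D3:**
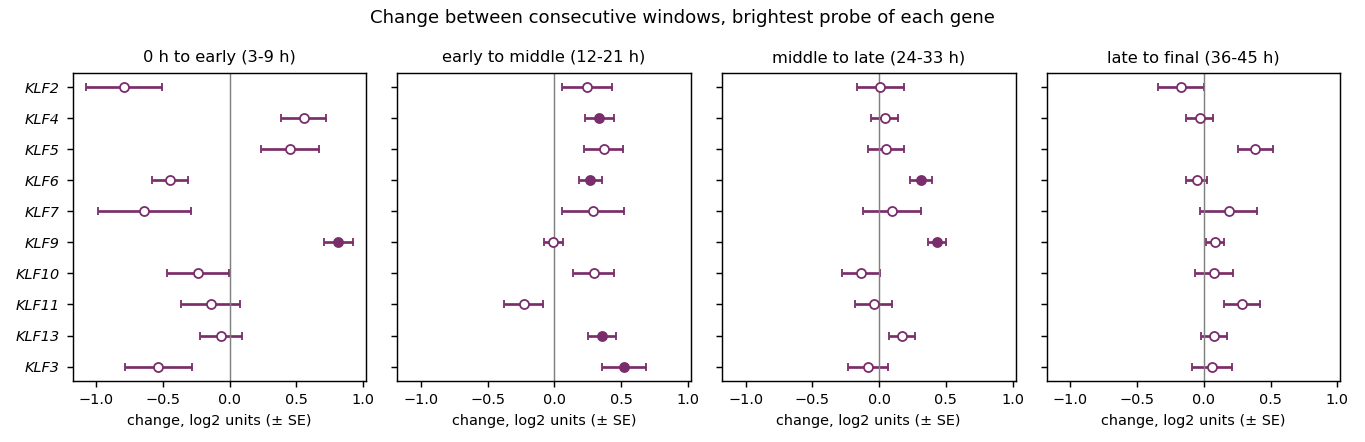
Change in log2 units (horizontal axis, bars of 1 SE) between consecutive windows for the brightest probe of each gene, 1 panel per step, with filled points for an adjusted p under 0.05. KLF9 alone is filled in the first panel (0.81), KLF3, KLF4, KLF6 and KLF13 in the second, KLF6 and KLF9 in the third, and no gene in the last.

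Courses were compared by the brightest probe of each gene. Among the 10 genes the courses most alike over the 16 arrays were those of KLF5 and KLF13 (Pearson r = 0.81), KLF5 and KLF9 (0.79), KLF9 and KLF13 (0.75) and KLF4 and KLF9 (0.73). The least alike were KLF10 and KLF11 (-0.51), a value of 1 probe of each, and their other probes were not compared. These values describe arrays that share a common trend in time and the same normalization. Of all other genes, those with the most similar course to KLF9 were MGC17330 (0.97), CXCR7 (0.96) and CYBRD1 (0.96). For KLF13 they were ZNF331 (0.96), TRAPPC6B (0.95) and LOC129285 (0.95), and for KLF5 RSBN1 (0.95), GCA (0.95) and CASC4 (0.94). The courses nearest to KLF4 were those of EFNA1 (0.95), ZSCAN2 (0.90) and PDIK1L (0.89), and to KLF6 those of RND3 (0.90), SYT17 (0.86) and ZNF323 (0.86). KLF11 was most like RAB11FIP3 (0.94), ZBED1 (0.88) and ZC3H14 (0.86).

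Related genes were counted by the same tests, to be read beside the 27% of all genes with a linear rise, the 22% with a linear fall and the median of 0.06. Of the other Kruppel-like factors and the related SP factors, 15 were on the array and 10 were tested. A linear rise was called for 1, SP4 (0.86 ± 0.18, adjusted p = 0.000441), and a fall for 0. Their median linear change was 0.10. Time dependence by the F-test was called for SP4, KLF8 and SP1 (adjusted p = 0.00332, 0.0169 and 0.025), beside 52.8% of all genes. A departure from a straight line was called for KLF8 and SP1 (adjusted p = 0.0253 and 0.0316), beside 20.3%. SP1, the general GC box activator, was higher by 0.58 from 0 h to the early window (adjusted p = 0.042). KLF12 and SP5 fell from the early to the middle window, by 0.61 and 0.41 (adjusted p = 0.0364 and 0.014). KLF14, KLF16, SP7 and SP8 were detected on 0 arrays and KLF17 on 1.

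Of the corepressors and coactivators, 10 were tested. CREBBP, an acetyltransferase, rose by 0.50 ± 0.10 (adjusted p = 0.00031). CTBP2 and CTBP1, the partners of KLF3, fell by 0.42 and 0.25 (adjusted p = 0.0181 and 0.0154). SIN3A was 0.05 ± 0.09 (adjusted p = 0.659), and 7 of the 10 had no called trend. Of 8 tested ubiquitin ligases that act on Kruppel-like factors, 2 rose, SIAH1 (0.58 ± 0.08, adjusted p = 6.98e-06) and FBXW7 (0.47 ± 0.14, adjusted p = 0.00786), and 0 fell. WWP1, a ligase of KLF5, was detected on 0 arrays. Of 6 tested genes of the MEK5, ERK5 and MEF2 route that controls KLF2 and KLF4 in other cells, 3 rose and 0 fell. MEF2D rose the most (1.56 ± 0.14, adjusted p = 4.1e-08), while MAPK7, the gene of ERK5 itself, had no called trend (-0.22 ± 0.14, adjusted p = 0.208). As given above, KLF4 had a called linear rise (0.53, adjusted p = 0.0026) and KLF2 had no called change. The KLF2 window holds the MEF2 site printed above, and a link of either gene to MEF2D was not tested.

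Of 24 tested genes that Kruppel-like factors are known to regulate, 5 rose and 7 fell, with a median of -0.09. KRT4, a keratin of stratified epithelium, rose the most (2.0 ± 0.21, adjusted p = 2.78e-07). SPRR2A, a cornified envelope gene with near-identical paralogs that may share its probe, fell the most (-4.53 ± 0.26, adjusted p = 1.02e-10). The falls also included genes of cell division, among them CCNB1 (-2.50 ± 0.25) and BIRC5 (-3.65 ± 0.29). CCL5 rose by 0.88 ± 0.12 (adjusted p = 4.42e-06). CDKN1A, a cell cycle inhibitor that KLF4 and KLF6 activate, measured -0.16 ± 0.22 (adjusted p = 0.582) as a linear change. It fell by 0.44 from the early to the middle window (adjusted p = 0.0149) and rose by 0.71 from the middle to the late window (adjusted p = 0.000605).

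Of 8 tested glucocorticoid-induced genes, 5 rose and 0 fell, with a median of 0.91. SGK, a kinase gene, rose the most (1.69 ± 0.15, adjusted p = 2.34e-08), and NR3C1, the receptor itself, rose by 1.00 ± 0.14 (adjusted p = 9.72e-06). From 0 h to the early window, the step at which KLF9 rose, 3 of the 8 rose and 1 fell, beside 1.17% and 1.35% of all genes. TSC22D3, which encodes the leucine zipper GILZ, rose by 1.42 (adjusted p = 0.0018), ZBTB16 by 1.13 (adjusted p = 0.000795) and SGK by 0.97 (adjusted p = 0.00751). ERRFI1, an inhibitor of the EGF receptor family, fell by 1.69 (adjusted p = 0.000371). FKBP5, a standard glucocorticoid target, was 0.30 (adjusted p = 0.303). These changes share the lone 0 h array with that of KLF9. Of 8 tested genes of TGF-beta and SMAD signalling, 3 rose and 1 fell. SMAD6, an inhibitory SMAD, rose the most (1.46 ± 0.20, adjusted p = 7.22e-06), and the ligand TGFB2 fell by 0.43 (adjusted p = 0.0272).

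**Figure D4:**
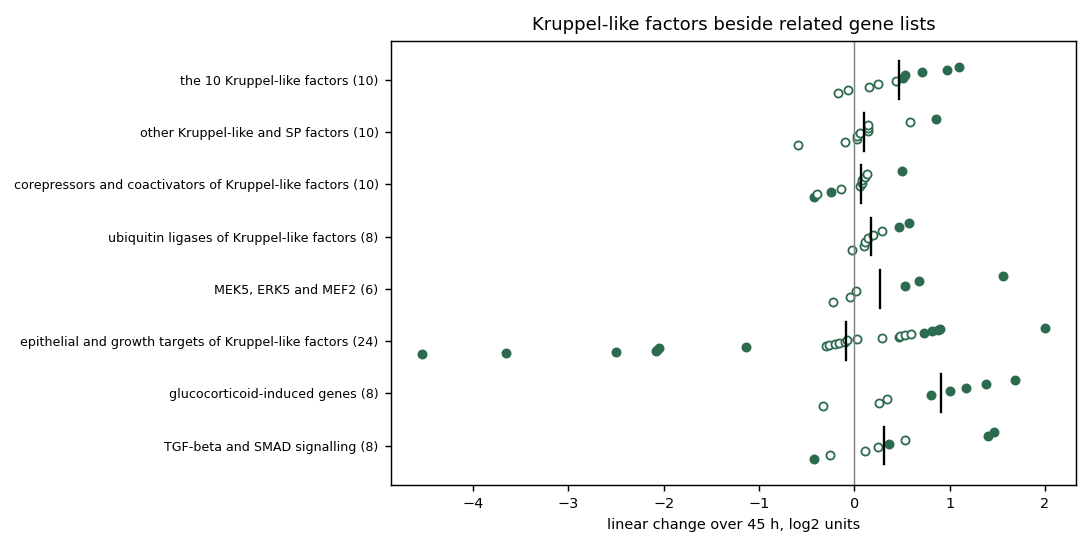
Linear change over 45 h in log2 units (horizontal axis) of each tested gene by list, with filled points for an adjusted p under 0.05, vertical lines for the median of each list and the number of tested genes in parentheses. The 10 Kruppel-like factors center on 0.47 and the glucocorticoid-induced genes on 0.91, while the regulated genes spread from -4.53 (SPRR2A) to 2.0 (KRT4).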

How the data were processed

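The 16 cultures of SUM225 cells in 1 µM CP724,714, taken 3 h apart, were measured on 16 Illumina bead arrays and grouped by the time in their labels. The deposited table gives a linear signal intensity per probe and array, which the authors left without background subtraction and without normalization, and a detection p-value against negative control probes, as deposited. The study's methods name quantile normalization as a later step. The scanning software was not given in the sources used here. No column of other samples was present.

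In R 4.3.3, neqc of limma 3.58.1 corrected the intensities (normexp, offset of 16), quantile-normalized them and took log2. The offset makes changes at low signal smaller. The tests covered the 16110 probes whose detection p was under 0.05 on 3 or more arrays. A cubic in hours was fitted with lmFit and eBayes with an intensity trend. Its first-order coefficient gave the linear change, and F-tests gave time dependence and departure from a straight line. A fit of means at 0 h and in the early (3 to 9 h), middle (12 to 21 h), late (24 to 33 h) and final (36 to 45 h) windows gave the steps. Tests were two-sided, adjusted by Benjamini-Hochberg over all probes tested, with a threshold of 0.05. Without replicates, the error came from deviations around the fitted course or window mean, which also hold true change. The number of arrays limits the precision.

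The brightest tested probe stood for a gene. All probes of the 10 genes were described, as were, of each list other than the cell markers, the genes with the largest called rise and fall. So were the members of the list of other Kruppel-like and SP factors with a called linear trend, and the 3 genes of most similar course. SP1, KLF8, KLF12, SP5, KLF14, KLF16, KLF17, SP7, SP8, CTBP1, SIN3A, FBXW7, WWP1, MAPK7, CCNB1, BIRC5, CCL5, CDKN1A, NR3C1, TSC22D3, ZBTB16, ERRFI1, FKBP5 and the cell markers given values were named after their values were seen. The members, lists and windows were chosen with earlier results of these data known. Older symbols were kept as the file gives them. A marker gene is not reported here. The file names no genome build, and promoter sequences came from a RefSeq table of GRCh38.p14. The fits were tested on simulated data. Alternatives were raw signals without background correction, a larger offset of 50, cyclic loess or median scaling in place of quantiles, no filter, a filter for detection on all 16 arrays, array weights, a natural spline with 5 degrees of freedom, the 0 h array as a term of its own, runs of 4 arrays as a factor, moved windows, other probes, and each array left out. Python 3.11.15 with matplotlib 3.10.9 drew the figures.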

Additional observations from a re-analysis of the deposited data

How the results depend on the processing

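No paired analysis was possible because only a single array covered every time point. Over 167 recomputed counts, 148 stayed within 1.5 times of the value given and 19 did not. Array weights gave 8 genes with a linear trend, 1 departing from a straight line, 5 changed from 0 h to the early window and 7 changed from there to the middle window. The run of 4 arrays as a factor widened the errors, gave 0 genes with a linear trend and turned the direction of KLF6 (-0.73 ± 0.46). Window borders moved by 1 time point gave 1 gene changed from the early to the middle window and 0 from there to the late window. With each array left out in turn, departures from a straight line ranged from 0 to 2, changes from 0 h to the early window from 1 to 2, from there to the middle window from 1 to 5, and on to the late window from 1 to 2. Of 484 recomputed single values, 444 kept their direction and side of the threshold, 39 were no longer past it and 1 reversed. The rise of KLF9 from 0 h to the early window stayed past the threshold in every alternative that could give it, between 0.74 and 0.89. The fit without the 0 h array gives no such step. The KLF4 time dependence was lost with the 0 h array as a term of its own (adjusted p = 0.0573). Array weights ended the KLF4 departure (adjusted p = 0.346) and the KLF6 step to the middle window (0.15, adjusted p = 0.105), and testing without the filter ended that of KLF3 (adjusted p = 0.0606). The causes were not tested. KLF7 lies near background, where log2 values are least precise.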
